A study of Mus musculus with 3 samples.

Results

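Ventricular Myl2-positive cardiomyocytes of the mouse embryo were chosen by 2 measured values of each cell. The summed unique molecular identifiers (UMIs, counted transcript molecules) of the contractile genes Myl7, Tnnt2, Ttn and Myl4 had to reach 50 per 10000 UMIs of the cell, and at least 3 UMIs of Myl2, the regulatory light chain of ventricular myosin, had to be counted. In all, 454 of 14777 cells met the rule (3.07%), 235 from control and 219 from mutant embryos. They made up 46.0% of the 987 cells past the contractile threshold. The other 533 of those cells had fewer than 3 Myl2 UMIs and are called Myl2-low cardiomyocytes here.

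All embryos carried Mesp1-Cre, which recombines in the early mesoderm lineage that gives rise to the heart, and the Ai9 reporter, which marks recombined cells with tdTomato, on a C57BL/6 background. Controls were Wls fl/+ and mutants Wls fl/fl, so each control had 1 floxed allele and a control without a floxed allele was not part of the comparison. Embryos of E8.0, E8.5 and E9.5 were dissociated, tagged with lipid-anchored MULTI-seq barcodes, sorted for tdTomato and captured on the 10x Chromium v3 platform in 3 sequencing runs. The deposited table assigned the cells to 22 barcode samples, of which 17 held at least 10 Myl2-positive cells, 11 held at least 20 and 3 held none. One of those 3 was listed as E7.5 and held 28 cells in all.

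The labels did not say how many embryos each barcode held. The barcode sample was therefore the replicate, and p-values measure the spread between barcode samples, which may be technical. Run 1 held all E8.0 samples and 5 of the E9.5 samples, run 2 held the E8.5 samples and 3 of E9.5, and run 3, with the other E9.5 samples, was the shallowest. The median number of UMIs per Myl2-positive cell ranged from 7270 to 27595 over the samples, their summed UMIs in the 17 samples with at least 10 cells from 166550 to 1231143, and the rule on raw Myl2 UMIs depends on that depth. At E8.0 the 3 mutant samples were male, while 2 control samples were female and 1 was mixed, so sex and genotype cannot be told apart at that stage. Among E9.5 samples with at least 10 Myl2-positive cells, the controls were female except Bar7. Of the mutants there, Bar19 and Bar21 were male and Bar20, Bar10 and Bar8 female. Bar19 was thus the only male among the E9.5 samples with at least 20 such cells, and sex was not balanced there either.

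Ventricular cardiomyocytes pump blood from the earliest beating heart tube, and they are recognised by ventricular myosin light chains, natriuretic peptides of the working chamber and transcription factors such as Irx4 and Hey2. Wls (Wntless) carries lipid-modified Wnt ligands to the cell surface, so cells without it cannot release Wnt proteins. Embryonic cardiomyocytes grow in a low-oxygen environment, rely on glycolysis and turn to mitochondrial fuel use as the chambers mature.

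Wls itself was measured first, in CPM (the UMIs of a gene per 1000000 UMIs, summed over the Myl2-positive cells of a sample). In the E8.0 controls Wls stood at 114 CPM in Bar24, 37.0 in Bar26 and 45.6 in Bar29, and in the E8.5 control at 50 in Bar3. Bar24 had only 5 Myl2-positive cells, and 11 of its 16 Wls UMIs came from 1 cell. In the E9.5 controls Wls was at 43.9 in Bar22, 54.3 in Bar23, 52.0 in Bar4, 67.7 in Bar7 and 42.7 in Bar9. In the mutants it was 1.67, 5.22 and 2.93 CPM in Bar25, Bar27 and Bar28 at E8.0, and 0 in Bar1 at E8.5, where a count of 0 allows up to 4.13 CPM. The E9.5 mutants held 22.6 CPM in Bar19, 1.47 in Bar20, 4.31 in Bar21, 0 in Bar10, and 4.77 in Bar8. A count of 0 in Bar10 allows up to 18 CPM, and the 2 cells of a further mutant, Bar5, held no Wls UMI, which allows up to 206 CPM.

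Among the samples with at least 10 Myl2-positive cells, each mutant was below each control (37.0 to 67.7 CPM), and Bar19 was the highest mutant. In Bar19, 14 of the 15 Wls UMIs came from 1 cell, and only 2 of its 35 Myl2-positive cells (5.71%, exact 95% interval 0.700% to 19.2%) had any Wls UMI. That cell had 56239 UMIs, 89 Myl2 UMIs and a contractile level of 72.7 per 10000. It also held 70 of the sample's 72 UMIs of Wfdc2, a secreted epithelial protein, and all 16 of Epcam, an epithelial adhesion protein, and was not called a doublet. Over the 3 stages the edgeR log2 fold change of Wls, mutant over control, was -2.83 (SE 0.46, adjusted p = 0.0369, 11 samples). At E9.5 alone it was -1.97 (SE 0.50, edgeR adjusted p = 0.0654) with the 5 samples of at least 20 cells and -2.39 (SE 0.42, edgeR adjusted p = 0.00151) with the 10 samples of at least 10.

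**Figure D1:**
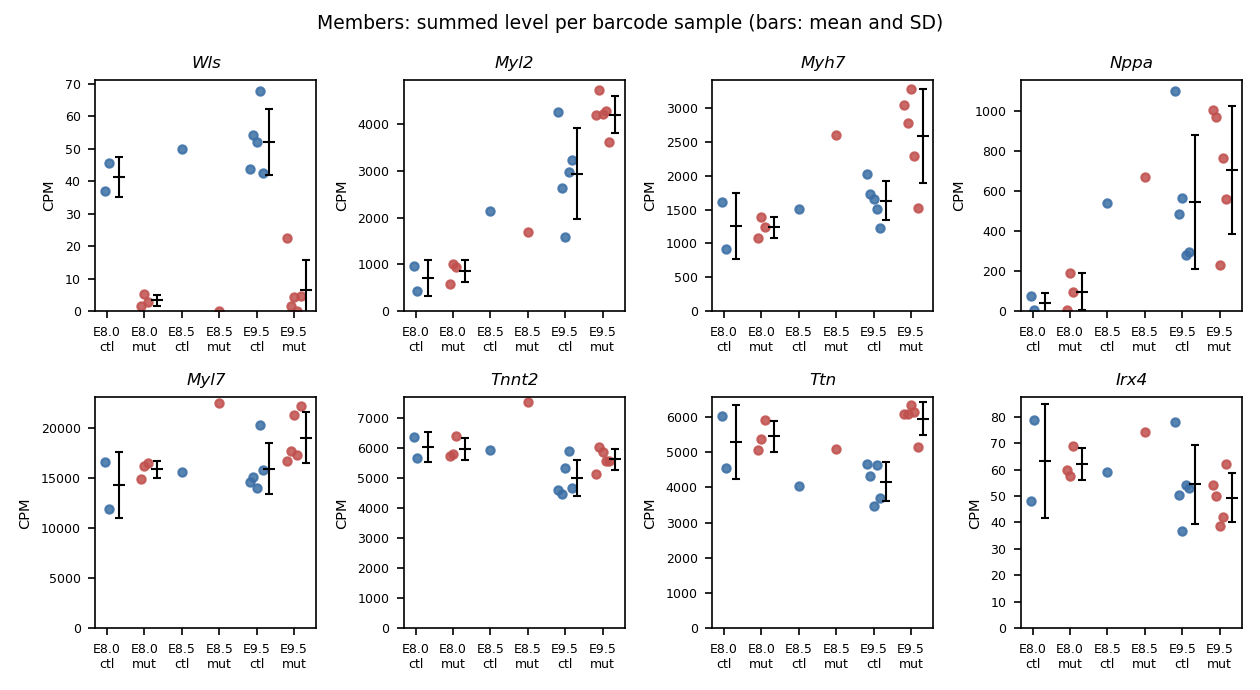
Level in CPM of Wls and of 7 cardiomyocyte genes in the Myl2-positive cells of each barcode sample with at least 10 such cells (blue points: controls, ctl; red points: mutants, mut; bars: mean and SD, where a group has more than 1 sample). Wls was 37.0 to 67.7 CPM in the controls shown and 0 to 22.6 CPM in the mutants, and Nppa and Myl2 were lowest at E8.0.

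The label was checked against genes that the rule did not use, since the rule itself sets Myl2 high. At E9.5 the Myl2-positive cells held 1232 to 3288 CPM of Myh7, the slow beta-myosin heavy chain, and 228 to 1097 CPM of the natriuretic peptide gene Nppa per sample. Both ranges overlapped with those of Myl2-low cells at E9.5, at 447 to 1519 CPM of Myh7 and 3.79 to 567 CPM of Nppa. Irx4, a transcription factor of ventricular identity, was detected in all 17 samples, at 36.7 to 78.6 CPM. At E8.0 Nppa was low or near 0, at 73.9, 5.07, 5, 191 and 96.6 CPM in Bar26, Bar29, Bar25, Bar27 and Bar28, so the label there rested on Myl2 and the contractile genes more than on Nppa. In E8.0 controls 14 outflow tract and anterior heart field genes summed to 1301 to 1799 CPM in Myl2-positive and 1214 to 1720 CPM in Myl2-low cells. For 14 atrial and inflow genes the sums were 608 to 959 and 817 to 1515 CPM, so both lists overlapped. At E9.5 neither list overlapped between the classes, with Myl2-positive cells lower.

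Markers of other lineages were summed per sample and set beside the cells under the contractile threshold. The 12 endothelial and endocardial genes reached 63.2 to 174 CPM in Myl2-positive cells and 146 to 644 CPM in the cells under the threshold, and the endothelial cadherin gene Cdh5 was at 0 in every one of the 17 samples but Bar22. The 10 paraxial and cranial mesoderm genes reached 9.03 to 108 CPM against 390 to 1048 CPM, and the 9 endoderm and neural genes 4.13 to 48.2 CPM against 10.6 to 242 CPM. The 9 proepicardial and septum transversum genes overlapped between these cells, at 123 to 319 CPM against 65.3 to 311 CPM. At E8.5 they were at 123 CPM in the control and 162 CPM in the mutant, under the 152 to 220 CPM and 198 CPM of the cells under the threshold. The 8 smooth muscle genes, several of which early cardiomyocytes also express, were higher, at 6251 to 13321 CPM against 170 to 517 CPM. The 10 blood cell markers ranged from 1075 to 21152 CPM, against 5763 to 257618 CPM in the cells under the threshold. The endothelial, the endoderm and neural, and the blood ranges thus overlapped as well.

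The cells differed widely in Myl2. Of the 454, 46 held 3 or 4 Myl2 UMIs, 74 held 5 to 9, 168 held 10 to 49 and 166 held at least 50, with a median of 30.0 and a highest value of 771. Among the Myl2-low cells 391 held 0 Myl2 UMIs, 97 held 1 and 45 held 2. Values on either side of the Myl2 threshold are given as a description. The 46 cells just inside held 1132 CPM of Myh7, 120 CPM of Nppa, 13.6 CPM of Irx4 and 58.2 CPM of Nr2f2, a transcription factor of atrial identity. The 45 cells just outside held 890, 25.7, 5.35 and 147 CPM of the same genes at a similar median depth (21204 and 21498 UMIs). The contractile threshold separated cells more cleanly: 5 of the Myl2-positive cells lay between 50 and 75 per 10000, the lowest at 63.2, and the 16 cells with at least 3 Myl2 UMIs below it reached no more than 24.5.

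Beyond Myl2, the positive cells differed from Myl2-low cells in genes of chamber and inflow identity. The rule chose the cells by this contrast, so the values are a description without a test, as median log2 ratios over the 8 samples with at least 20 cells of each class (5 CPM added to both). These samples held no E9.5 mutant and no E8.0 control. The natriuretic peptides Nppb (3.60) and Nppa (3.56) and the ventricular factor Irx4 (3.03) were higher in 8 of 8 samples. In E9.5 mutants with at least 10 cells of a class, Nppb was 36.0 to 192 CPM in Myl2-positive cells (mean 111). In their Myl2-low cells it was 14.4 to 778 CPM (mean 254), so higher Nppb did not hold throughout. Acta1, the skeletal alpha-actin of early heart muscle (2.71), Myl3, the ventricular essential light chain (2.53), and Cox6a2, a muscle subunit of cytochrome c oxidase (2.61), were also higher in 8 of 8. Lower in 8 of 8 were the atrial factors Nr2f2 (-3.53) and Nr2f1 (-2.87), the sinus node factor Shox2 (-2.87), the Wnt antagonist Sfrp5 (-2.38) and the pacemaker channel Hcn4 (-1.83). Isl1, a second heart field factor, was lower as well (-1.56).

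The share of Myl2-positive cells among all sorted cells was compared between genotypes. At E9.5 it was 4.75% ± 2.42 (SD, n = 6) in mutant samples and 4.10% ± 3.60 (SD, n = 5) in controls. The ranges overlapped (1.78% to 8.93% and 1.63% to 10.4%), and the difference centred within runs was 0.929 percentage points (two-sided exact permutation test, p = 0.450). At E8.0 it was 4.98% ± 1.07 (SD, n = 3) in mutants and 2.48% ± 0.992 (SD, n = 3) in controls, without overlap (exact permutation p = 0.100, the smallest that 3 against 3 allows, so this design could not pass). Over the 3 stages the centred difference was 1.93 points (exact permutation p = 0.0362 and 0.181 after Benjamini-Hochberg adjustment over the 5 share tests), so it did not pass.

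Among cells past the contractile threshold alone, the Myl2-positive share at E9.5 was 56.7% ± 8.70 (SD, n = 5) in mutants and 51.7% ± 14.8 (SD, n = 5) in controls, a centred difference of 0.835 points (exact permutation p = 0.917). Within run 1 that difference was 9.82 points and within run 3 it was -9.70 points. Blood cells in the sort also moved with the first share: with globin-rich cells (at least 500 globin UMIs per 10000) left out of the total, the difference over the 3 stages was 1.51 points (exact permutation p = 0.322). At E9.5 it was then 0.101 points (exact permutation p = 0.992), with a mean of 5.64% in mutants and 5.97% in controls. At E8.0 it was 2.35 points (exact permutation p = 0.200), and the genotypes overlapped there, with the lowest mutant at 4.43% and the highest control at 4.50%.

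The call on the 3-stage share of all cells depended on the setting. On the log2 odds scale the difference was 0.908 (exact permutation p = 0.00750, and 0.0375 adjusted over the 5 tests on that scale), so there it passed. With at least 5 Myl2 UMIs it was 2.03 points (exact permutation p = 0.0126, adjusted 0.0630). Cells were also thinned to 5000 UMIs, where shallower cells were left out and any remaining Myl2 UMI met the Myl2 rule. With that setting the difference was 2.26 points (exact permutation p = 0.0143, adjusted 0.0715). Without the control Bar7 it was 2.49 points (exact permutation p = 0.00111) and without the mutant Bar1 1.33 points (exact permutation p = 0.118), both unadjusted. The estimate was higher in mutants in each of these settings.

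**Figure D2:**
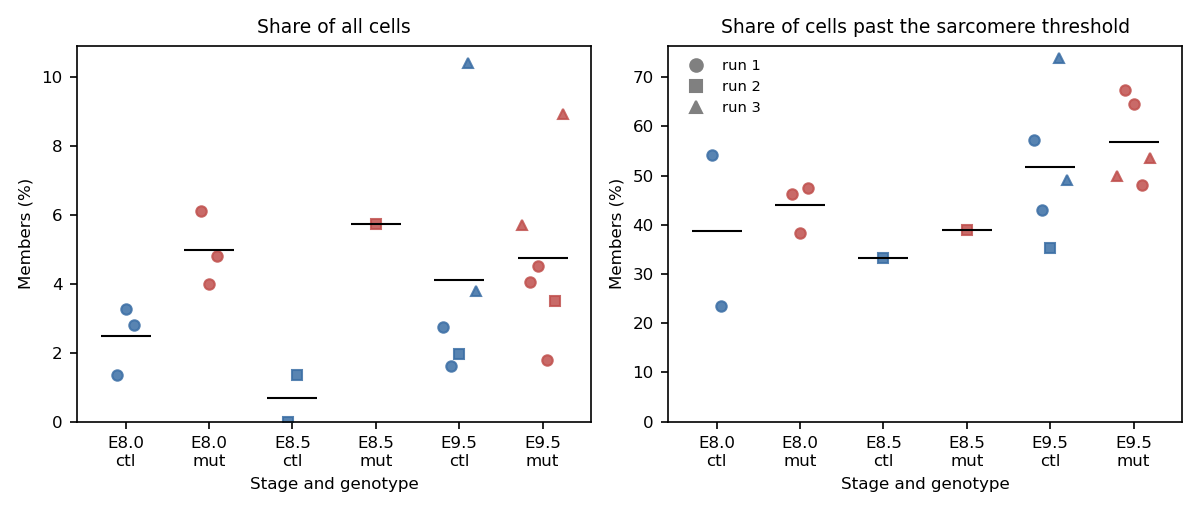
Share of Myl2-positive cells (percent) in each barcode sample with at least 20 cells, of all cells (left) and of cells past the contractile threshold in samples with at least 20 such cells (right). Colour gives the genotype (blue control, red mutant), the point shape the sequencing run and the line the group mean. The E9.5 groups overlap in both panels, and the E9.5 control at 10.4% stands apart from the other E9.5 controls at 1.63% to 3.78%.

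At E9.5, the stage with most samples per genotype, the genotypes differed within the Myl2-positive cells. Of the tested genes that cells switch on at low oxygen, 19 of 27 were higher in mutant cells, and 5 of 18 glycolysis genes were, 3 of them on both lists. The metallothioneins Mt1 and Mt2 and the contractile gene Myh7 were also higher. The contractile genes Myl3 and Acta1 were higher in the planned test, but with 5 mutant and 5 control samples they did not pass (edgeR adjusted p = 0.153 and 0.164). Ccnd2 (cyclin D2), the ligand Bmp2 and the natriuretic peptide gene Nppb were lower. The planned edgeR quasi-likelihood test took 2 mutant samples (Bar19, Bar20) and 3 controls (Bar22, Bar23, Bar9), each with at least 20 Myl2-positive cells. Run was a block and Bar9 was alone in run 3, so the genotype estimates rested on run 1. There Bar19 and Bar20 were set against Bar22 and Bar23. The test called 127 of 8818 genes at an adjusted p of 0.05 (1.44%), 100 higher (1.13%) and 27 lower (0.306%) in mutants. In run 1 alone it called 85. With at least 10 cells per sample, 5 mutant and 5 control samples entered and 262 of 8171 genes were called (3.21%), 167 higher (2.04%) and 95 lower (1.16%), of which 103 were called in both. Without Bar19 the planned samples gave 24 called genes and without Bar20 they gave 280, each with the lone mutant assumed to vary like the controls, and with the share of male cells as a covariate they gave 13. The second comparison is called the one with 5 samples per genotype. In it Bar4 was alone in run 2, so of the controls only Bar22, Bar23, Bar7 and Bar9 entered the genotype estimates. Without Bar4 this comparison called 270 genes. Its count moved with other samples as well. It called 81 genes without Bar23, 124 without Bar19 or without Bar22, 170 without Bar9 and 365 without Bar8. It called 162 with the share of male cells as a covariate, 172 with DESeq2 and 41 of 4609 tested genes without run 1. Fold changes and adjusted p-values given for E9.5 are from the planned samples unless 5 samples per genotype are named. The CPM values listed beside them cover every E9.5 sample with at least 10 such cells, so they include samples that the planned test did not.

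Of 30 genes listed as induced at low oxygen, 27 were tested at E9.5, 19 were higher in mutants and none was lower. The list, like the others, was chosen with earlier results of these data known. All 27 estimates were positive, with a median log2 fold change of 1.20 beside 0.008 for all genes. With 5 samples per genotype 23 of 28 were higher, with a median of 1.18, and without Bar22 or without Bar23 13 of 25 were (medians 1.09 and 1.14). The summed level of the list was 7266 CPM in Bar22, 7426 in Bar23, 8233 in Bar4, 8693 in Bar7 and 7610 in Bar9. In the mutants it was 12764 CPM in Bar19, 10522 in Bar20, 13414 in Bar21, 13131 in Bar10 and 10206 in Bar8, so the groups did not overlap in run 1 or in run 3. Gene by gene, every mutant sample was above every control sample for 18 of the 28 genes. Over all genes tested that share was 1.85%, and 1.90% had every mutant sample below every control sample.

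The promoters of 3 of these genes are shown because hypoxia-inducible factors bind a short core, of which the form ACGTG was searched for on either strand. They are the low-oxygen genes with the smallest adjusted p at E9.5 that had an entry in the RefSeq promoter table (GRCm38.p6, 250 bases before to 50 after the transcription start, 5′ to 3′ on the gene's strand), with the core in capitals. Bnip3 lies at chr7:138909457-138909756 on the minus strand, Ier3 at chr17:35821463-35821762 on the plus strand and P4ha2 at chr11:54100674-54100973 on the plus strand.
Bnip3: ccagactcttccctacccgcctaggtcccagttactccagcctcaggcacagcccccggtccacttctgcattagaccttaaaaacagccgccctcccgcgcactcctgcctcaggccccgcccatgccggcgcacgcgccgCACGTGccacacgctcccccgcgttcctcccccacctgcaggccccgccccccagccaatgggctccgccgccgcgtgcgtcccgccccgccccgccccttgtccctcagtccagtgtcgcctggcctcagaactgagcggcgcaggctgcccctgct
Ier3: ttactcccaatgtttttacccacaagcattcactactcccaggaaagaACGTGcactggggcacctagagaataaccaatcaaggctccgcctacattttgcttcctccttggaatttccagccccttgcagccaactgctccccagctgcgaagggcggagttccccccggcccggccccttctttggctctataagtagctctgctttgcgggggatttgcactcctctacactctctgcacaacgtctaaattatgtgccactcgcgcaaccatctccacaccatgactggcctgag
P4ha2: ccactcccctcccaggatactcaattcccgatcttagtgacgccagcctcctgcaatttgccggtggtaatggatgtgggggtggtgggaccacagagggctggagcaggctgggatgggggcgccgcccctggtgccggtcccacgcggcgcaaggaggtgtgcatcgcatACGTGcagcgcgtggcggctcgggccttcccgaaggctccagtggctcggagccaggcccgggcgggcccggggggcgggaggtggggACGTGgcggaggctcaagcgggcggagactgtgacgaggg
In Bnip3 the core was found on both strands at 1 place, overlapping as CACGTG, Ier3 held it once and P4ha2 at 2 places. Of the 27 tested low-oxygen genes 21 had an entry and 14 of those held the core in this window, as did 27.8% of the 6903 tested genes with an entry and 19.7% of all 27025 promoters. Other forms of the core were not searched for or counted. A match describes the letters of the window and does not show binding.

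Ndufa4l2, a mitochondrial protein that lowers respiration at low oxygen, had the smallest adjusted p. It was at 13.8, 9.27, 12.2, 13.5 and 9.06 CPM in the controls Bar22, Bar23, Bar4, Bar7 and Bar9. In the mutants Bar19, Bar20, Bar21, Bar10 and Bar8 it was at 131, 112, 77.6, 222 and 47.7 CPM, each above every control. With the planned samples its log2 fold change was 3.36 (SE 0.29, edgeR adjusted p = 2.39e-05). After each cell was thinned to 5000 UMIs, 27.9% of 111 mutant cells and 5.06% of 158 control cells had a Ndufa4l2 UMI (62.5% and 17.5% before thinning). By sample the thinned shares were 15.4% to 46.7% in mutants and 1.96% to 16.7% in controls, so they overlapped. In globin-rich cells of the same samples, which served as background, the thinned shares were 1.74% and 0.368%. The median depths were 16641 and 20471 UMIs in the mutant and control Myl2-positive cells and 22729 and 24864 UMIs in the globin-rich cells.

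Bnip3, a mitophagy receptor, was likewise higher in each mutant sample. It was 50.4, 51.6, 104, 126 and 99.7 CPM in the controls and 238, 178, 271, 246 and 157 CPM in the mutants, in the order just given (log2 fold change 2.06, SE 0.21, edgeR adjusted p = 9.41e-05). Ier3, an immediate early survival gene, was 8.93 to 29.8 CPM in controls and 51.4 to 150 CPM in mutants (2.74, SE 0.37, edgeR adjusted p = 0.00123). P4ha2, a collagen prolyl hydroxylase, was 33.1 to 54.2 CPM in controls and 98.4 to 224 CPM in mutants (1.73, SE 0.25, edgeR adjusted p = 0.00207). The oxygen sensor Egln1, the prolyl hydroxylase that marks hypoxia-inducible factors for destruction, was 118 to 185 CPM in controls and 198 to 406 CPM in mutants (1.37, SE 0.25, edgeR adjusted p = 0.0124). For none of these 5 genes did the genotypes overlap. Vegfa, the vascular growth factor, did not pass with the planned samples (0.42, edgeR adjusted p = 0.526) and was higher with 5 samples per genotype (0.85, edgeR adjusted p = 0.0462).

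The list's count depended on which samples entered and on the test. With DESeq2 on the planned samples 8 of 27 genes were called, with the same median of 1.20, and with DESeq2 on 5 samples per genotype 18 of 28. Without Bar19, which left Bar20 as the sole mutant, 5 of 27 genes were called, with 26 positive estimates and a median of 0.99. With the share of male cells as a covariate, 2 of 27 were called with the planned samples and 18 of 28 with 5 samples per genotype. Outside run 1, chosen after the data were seen, 4 of 21 were called and all 21 estimates were positive (median 0.87).

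Glycolysis genes had the same sign. All 18 tested genes of the list had positive estimates (median log2 fold change 0.41), 5 were higher in mutants and none was lower, and with 5 samples per genotype 10 of 18 were higher. Pfkp, the platelet phosphofructokinase, was 119 to 199 CPM in controls and 239 to 362 CPM in mutants (1.22, SE 0.19, edgeR adjusted p = 0.00329). Hk2, a hexokinase bound to mitochondria, was 156 to 248 CPM in controls and 370 to 624 CPM in mutants (1.04, SE 0.18, edgeR adjusted p = 0.00683). The glucose transporter Slc2a3 was 37.1 to 78.9 CPM in controls and 599, 135, 228, 156 and 71.6 CPM in the mutants Bar19, Bar20, Bar21, Bar10 and Bar8, so Bar8 lay among the controls (2.86, SE 0.47, edgeR adjusted p = 0.00558). Slc2a1 (0.92) and Pgk1 (0.63), a glucose transporter and a glycolytic kinase, were higher as well, and 3 of these 5, Slc2a1, Slc2a3 and Pgk1, were also on the low-oxygen list.

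**Figure D3:**
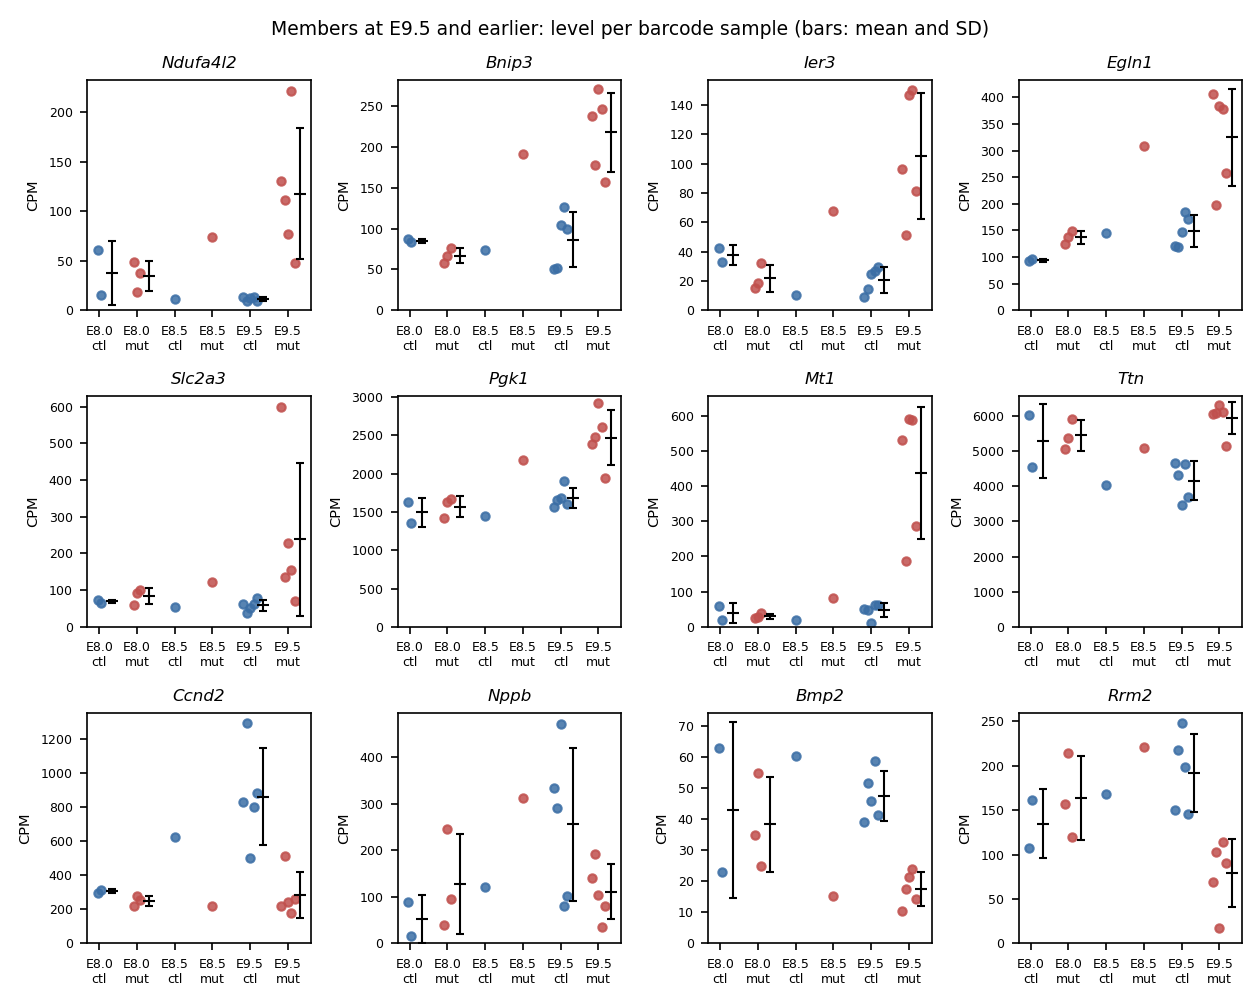
Level in CPM of 12 genes in the Myl2-positive cells of each barcode sample with at least 10 such cells, by stage and genotype (blue points: controls, ctl; red points: mutants, mut; bars: mean and SD). At E9.5 the mutant points of Ndufa4l2 (47.7 to 222 CPM), Bnip3 (157 to 271 CPM) and Mt1 (186 to 590 CPM) lie above all control points, and those of Bmp2 (10.5 to 24.0 CPM) lie under all control points.

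Few mitochondrial and fuel genes passed. Of 12 genes of the mitochondrial genome 1 was lower and none was higher: mt-Nd1, a subunit of respiratory complex I. It was 5626, 4864, 2716, 3399 and 2968 CPM in the controls Bar22, Bar23, Bar4, Bar7 and Bar9 and 2078, 3452, 2663, 1405 and 2357 CPM in the mutants Bar19, Bar20, Bar21, Bar10 and Bar8. The genotypes overlapped over all samples but not within run 1 or within run 3 (log2 fold change -0.88, SE 0.17, edgeR adjusted p = 0.0178). With 5 samples per genotype 3 of 12 were lower, mt-Nd1, mt-Cytb and mt-Nd4. None of 16 tested fatty acid and cardiac energy genes was called, with a median of 0.21. Among 14 tested heat shock and stress genes the metal-binding proteins Mt1 and Mt2 were higher and none was lower. Mt1 was 12.2 to 63.2 CPM in controls and 531, 186, 590, 588 and 286 CPM in Bar19, Bar20, Bar21, Bar10 and Bar8 (2.88, SE 0.35, edgeR adjusted p = 0.000637).

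Among genes of the ventricle and chamber, 2 of 15 were higher in mutants and 1 was lower (median log2 fold change 0.34). Myh7 was 2022, 1725, 1661, 1512 and 1232 CPM in the controls Bar22, Bar23, Bar4, Bar7 and Bar9, and 3044, 2784, 3288, 2294 and 1527 CPM in the mutants Bar19, Bar20, Bar21, Bar10 and Bar8. Only Bar8 lay among the controls (0.68, SE 0.13, edgeR adjusted p = 0.0148, and 0.00599 with 5 samples per genotype). Myl3 was higher with the planned samples (0.52, edgeR adjusted p = 0.0452) but did not pass with 5 samples per genotype (0.41, edgeR adjusted p = 0.153). Irx4 (-0.30) and Nppa (0.34, edgeR adjusted p = 0.597) did not pass.

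Nppb, the B-type peptide, was lower in mutants at E9.5, both within run 1 and within run 3. In run 1 it was 334 and 291 CPM in the controls Bar22 and Bar23 and 140, 192 and 103 CPM in the mutants, and in run 3 it was 81.2 and 101 CPM in the controls Bar7 and Bar9 and 36.0 and 81.1 CPM in the mutants. Its log2 fold change was -0.87 (SE 0.19, edgeR adjusted p = 0.0323) and -0.92 with 5 samples per genotype (edgeR adjusted p = 0.00365). For Nppa, 64.0% of mutant cells had a UMI after thinning (samples 53.3% to 74.3%) against 39.2% of control cells (samples 31.4% to 50%), although its summed level did not pass. For Nppb the thinned shares were 30.6% and 31.0%, although its summed level was lower in mutants, and no test compared these shares or the 2 genes.

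Of 30 tested sarcomere genes outside the rule 3 were higher and none was lower (median 0.09): Myh7, Myl3 and Acta1. Acta1 was 1591, 1225, 1645, 1905 and 1774 CPM in the controls and 2840, 2254, 2986, 1735 and 1555 CPM in the mutants, so the mutants of run 1 were high and those of run 3 lay among the controls. It passed with the planned samples (0.89, SE 0.15, edgeR adjusted p = 0.00724) and not with 5 samples per genotype (0.46, edgeR adjusted p = 0.164). The giant spring protein Ttn, one of the genes of the rule, was 3480 to 4675 CPM in controls and 5153 to 6321 CPM in mutants and is given as a description, without a test. Of 18 calcium handling and channel genes 1 was higher, Cacna1h, a T-type calcium channel subunit, at 15.3 to 21.1 CPM in controls and 30.0 to 64.6 CPM in mutants (1.28, SE 0.30, edgeR adjusted p = 0.0455).

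Of 18 tested Bmp and Notch genes 1 was lower and none was higher, and of 7 cyclin D and CDK inhibitor genes 1 was higher and 1 lower. Bmp2, a growth factor of the atrioventricular canal, was 39.0, 51.6, 45.9, 58.7 and 41.4 CPM in the controls and 10.5, 17.6, 21.5, 24.0 and 14.3 CPM in the mutants, without overlap (log2 fold change -1.61, SE 0.35, edgeR adjusted p = 0.0350). Ccnd2, the D-type cyclin of cardiomyocyte proliferation, was 827, 1295, 502, 799 and 881 CPM in the controls and 221, 514, 241, 180 and 262 CPM in the mutants (-1.48, SE 0.28, edgeR adjusted p = 0.0149). The Bar20 mutant at 514 CPM was level with the Bar4 control at 502 CPM. After thinning, 52.3% of mutant cells and 84.2% of control cells had a Ccnd2 UMI, against 12.6% and 11% of globin-rich cells.

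The CDK inhibitor Cdkn1b was higher (1.54, edgeR adjusted p = 0.0367). In run 1 it was 14.6 and 13.2 CPM in controls and 32.3 to 56.0 CPM in mutants, while in the other runs controls held 34.9 to 36.7 CPM and mutants 42.0 and 42.9 CPM. Of 25 cell cycle genes 1 was lower, the nucleotide reductase subunit Rrm2 (-1.04, edgeR adjusted p = 0.0367), none was higher and the median was -0.06. Tdgf1, a Nodal co-receptor of the outflow tract, was higher (1.45, edgeR adjusted p = 0.0144). Its mutant values were 129, 148 and 211 CPM in run 1 beside 68.2 and 30.5 CPM in controls, but 42.0 and 38.2 CPM in run 3 beside 45.1 and 66.0 CPM.

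None of 8 tested Wnt target genes passed with the planned samples, with a median of -0.41. With 5 samples per genotype 1 of 6 was lower: Lef1, a transcription factor of the Wnt pathway that is also one of its targets, at 21.1 to 43.7 CPM in controls and 0 to 14.7 CPM in mutants (-1.53, edgeR adjusted p = 0.0261). Isl1 did not pass with the planned samples and was lower with 5 samples per genotype, at 27.1 to 70.3 CPM in controls and 12 to 21.5 CPM in mutants (-1.30, edgeR adjusted p = 0.00977). Hey2, a Notch effector of the ventricle, was higher with 5 samples per genotype, at 13.5 to 40.6 CPM in controls and 48.0 to 67.5 CPM in mutants (0.94, edgeR adjusted p = 0.0168). Of the lists not yet described, the atrial and inflow list had 0 of 13 genes called with the planned samples, the cardiac transcription factors 0 of 27, the extracellular matrix and adhesion list 0 of 17 and the Wnt secretion and receptor list 0 of 18.

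**Figure D4:**
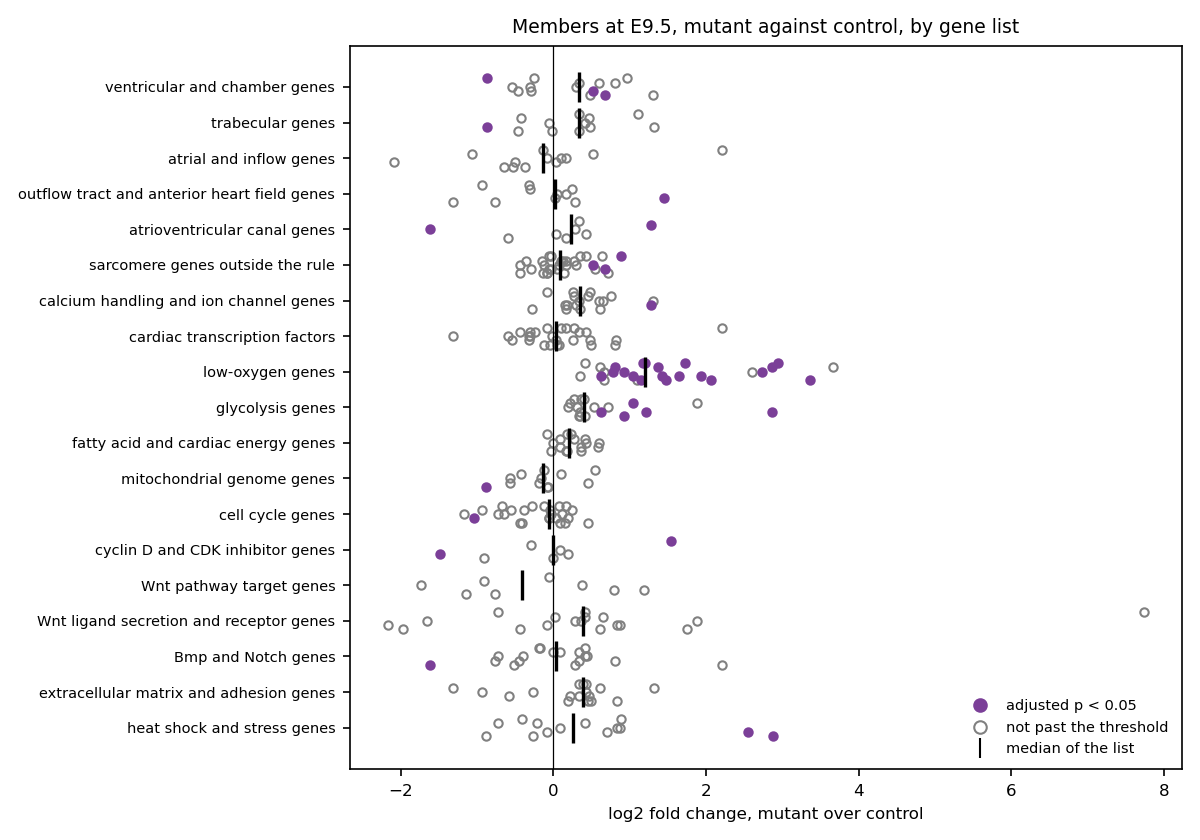
Log2 fold change, mutant over control, of each tested gene of 19 gene lists in Myl2-positive cells at E9.5 (filled: edgeR adjusted p under 0.05; open: not past it; bar: median of the list). The low-oxygen list has 19 filled points of 27 and the highest median shown (1.20), and a gene on several lists is drawn in each.

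Blood transcripts moved with 2 of these samples. The summed level of 10 blood cell markers was 21152 CPM in the control Bar9 and 14790 CPM in the mutant Bar19, against 1116 to 5548 CPM in the other E9.5 samples. With the planned samples 5 of 6 tested blood markers were higher in mutants, among them Hbb-y, an embryonic beta-globin (2.78, edgeR adjusted p = 0.0323). Bar9, alone in run 3 there, did not enter those genotype estimates. With 5 samples per genotype none of 6 was higher (Hbb-y 0.66, edgeR adjusted p = 0.704). Of the Myl2-positive cells 3 were globin-rich, 2 in Bar9 and 1 in Bar19, and 2 of them were called doublets. Without them, chosen after the data were seen, 85 genes were called and 16 of 27 low-oxygen genes were higher, with a median of 1.20.

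The largest called differences beyond the lists were less even between samples. The processed pseudogenes Rps15a-ps8 (4.67) and Rps13-ps1 (4.65) and the ribosomal gene Rps3a1 (3.90) were high in some samples and near 0 or low in others, in both genotypes. Rps15a-ps8, for example, was 168 CPM in the control Bar4, 175 CPM in Bar19 and 8.81 CPM in Bar20. Reads of such near-identical copies cannot be assigned with certainty. Espn, an actin-bundling protein, was 0.812 to 6.12 CPM in controls and 0 to 39.1 CPM in mutants (4.53, SE 0.90, edgeR adjusted p = 0.0215), with Bar8 at 0. Wfdc2 (3.81) rested on the single Bar19 cell described with Wls.

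The largest falls were H2-T24 (-3.06), a non-classical histocompatibility gene, Pinx1 (-1.92), a telomerase inhibitor, Mab21l2 (-1.92), a developmental regulator, Bmp2, Exosc2 (-1.53), an RNA exosome subunit, and Zbtb45 (-1.50), a zinc finger factor. With 5 samples per genotype Mab21l2 did not pass (-1.34, edgeR adjusted p = 0.173). Pinx1 was 22.6 to 58.1 CPM in controls and 6.02 to 23.9 CPM in mutants. H2-T24 rested on run 1, where the controls held 19.5 and 64.9 CPM, since the other controls held 0 to 4.51 CPM. Zbtb45 did so too, at 83.7 and 71.5 CPM in the run 1 controls and 13.5 to 33.6 CPM in the others, as did Exosc2, at 133 and 113 CPM against 36.1 to 49.2 CPM.

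Fitted over the 3 stages together with stage and run as blocks, the genotype effect was called for 11 of 9264 genes (0.119%), 10 higher in mutants (0.108%) and Wls lower (0.0108%). DESeq2 called 10, of which 3 were among the 11. With at least 10 cells per sample 82 of 9747 were called (0.841%). That count was 23 without Bar23, 28 without Bar22, 42 to 49 without Bar1, Bar3, Bar9, Bar10 or Bar19, 127 without Bar25 and 176 without Bar26, and 21 with male share as a covariate. With at least 20 cells none was called without Bar1, Bar3, Bar22 or Bar23, 2 without Bar19 and 128 without Bar26, and 900 genes had an unadjusted p under 0.05 with all samples. The low-oxygen list had 2 of 27 genes higher, Egln1 (1.11, SE 0.18, edgeR adjusted p = 0.0369) and the transcriptional repressor Bhlhe40 (2.42, SE 0.46, edgeR adjusted p = 0.0437), with 27 positive estimates and a median of 0.86. With male share as a covariate neither was called (0.81 and 2.31), and Wls (-5.91) was the sole gene called of all. With at least 10 cells per sample 19 of 28 were higher, with a median of 0.83. The others called were the lipoprotein receptor Vldlr (2.09), the histocompatibility gene H2-Ab1 (2.09), the cyclin G family member Ccng2 (1.78), Bend5 (1.65), the mitochondrial transport factor Mgarp (1.14), Apoe (0.89), Anxa2 (0.88) and the Y-linked Ddx3y (5.57), which follows the sex of the samples.

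At E8.0 the summed low-oxygen level was 7544 and 6153 CPM in the controls Bar26 and Bar29 and 6721, 7746 and 7555 CPM in the mutants Bar25, Bar27 and Bar28, so the genotypes overlapped. At E8.5 it was 7872 CPM in the control Bar3 and 11784 CPM in the mutant Bar1. With 1 sample per genotype at E8.5 there was no test within that stage, and whether the effect differed between stages was not tested. Egln1 was 92.4 and 96.3 CPM in the E8.0 controls, 125, 137 and 149 CPM in the E8.0 mutants, and 146 and 308 CPM in the E8.5 control and mutant.

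At E8.0 only 1 control held 20 Myl2-positive cells, and a test with at least 10 cells per sample (2 controls and 3 mutants) was added after the data were seen. It called 3 of 7211 genes (0.0416%), all lower in mutants (0.0416%), and 252 passed an unadjusted p of 0.05. The called genes were Wls (log2 fold change -3.50, SE 0.51, edgeR adjusted p = 0.0325), the ribosomal protein gene Rpl34 (-1.02, SE 0.11, edgeR adjusted p = 0.00272) and Xist, the transcript of the inactive X chromosome (-4.44), which follows the sex of these samples. DESeq2 also called 3 genes. Without Bar27 or Bar28 1 gene was called, and without Bar29 6 were. Of 21 tested low-oxygen genes none was called and 14 estimates were positive, with a median of 0.04 beside 0.00 for all genes. Without Bar26 17 of 23 estimates were positive (median 0.29) and without Bar29 8 of 23 were (median -0.06), each with 1 control left. Egln1 was at 0.55 (SE 0.19, edgeR adjusted p = 1.000), Ndufa4l2 at -0.24 and Bnip3 at -0.33. Nppb, which was lower in mutants at E9.5, had a positive estimate here (1.23, SE 0.65) and did not pass.

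The Myl2-low cells at E9.5 were fitted in the same way, in the 9 of these 10 samples with at least 10 such cells (4 controls, without Bar7, and 5 mutants). Bar4 was again alone in run 2 and did not enter the genotype estimates. In Myl2-low cells 24 of 28 low-oxygen genes were higher in mutants (median 1.79, against 2.19% of all genes higher) and 14 of 17 glycolysis genes. The summed low-oxygen level in Myl2-low cells was 5544 to 6608 CPM in controls and 9978 to 15939 CPM in mutants. In cells under the contractile threshold it was 2652 to 4709 CPM in the 5 controls and 6117 to 9067 CPM in the 6 mutants. The higher level of these genes in mutants was thus present outside the Myl2-positive cells too.

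Whether the genotype effect itself differed between the classes was tested by an interaction term with a block per sample. With at least 20 cells of each class, every E9.5 mutant and every E8.0 control was left out. Apart from Bar1 and Bar3 at E8.5, genotype and stage cannot be told apart in the 8 samples that entered. There 1 of 9834 genes was called (0.0102%), the unnamed transcript CT010467.1 (-1.41, edgeR adjusted p = 0.0180), while 426 genes had an unadjusted p under 0.05. With at least 10 cells of each class CT010467.1 was at -0.08 (SE 0.14, edgeR adjusted p = 0.992). In that comparison (16 samples) 6 of 9679 were called (0.0620%), all with a lower effect in Myl2-positive cells. They were Nppb (-4.95, SE 0.66, edgeR adjusted p = 0.000164), Anxa2 (-1.03), the cytoplasmic actin Actg1 (-0.80), the growth factor Tgfb2 (-1.08), the transcription factor Creb5 (-3.10) and Ccnd2 (-0.89, edgeR adjusted p = 0.0495). None of the 28 low-oxygen genes was among them. Their differences were nonetheless negative, a lower effect in Myl2-positive cells, except for Kdm3a (0.10), Adm (0.02) and Hilpda (0.01). Vegfa was nearest to the threshold (-1.08, SE 0.24, edgeR adjusted p = 0.0775), and the list as a whole was not tested.

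Nppb moved in opposite directions in the 2 classes at E9.5. In Myl2-low cells it was 2.62 to 31.4 CPM in controls and 14.4 to 778 CPM in mutants (log2 fold change 4.21, edgeR adjusted p = 0.0175), whereas in Myl2-positive cells it was 81.2 to 471 CPM in controls and 36.0 to 192 CPM in mutants. Ccnd2 was 203 to 363 CPM in Myl2-low controls and 115 to 247 CPM in Myl2-low mutants (-0.40, edgeR adjusted p = 0.400), so the high level of the Myl2-positive controls, 502 to 1295 CPM, was not reached there. At E9.5 alone, an alternative chosen after the data were seen, 20 of 6403 genes were called (0.312%). They included Nppb (-4.98), Bmp2 (-1.72), whose effect in Myl2-low cells was 0.44 (edgeR adjusted p = 0.591), and 1 low-oxygen gene, the collagen prolyl hydroxylase P4ha1 (-1.12, edgeR adjusted p = 0.0481). Ccnd2 did not pass there (-1.16, SE 0.26, edgeR adjusted p = 0.0544).

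Between E8.0 and E9.5, 8 of 15 ventricular and chamber genes, 12 of 30 contractile genes outside the rule and 9 of 16 fatty acid and cardiac energy genes rose in the Myl2-positive cells, while 2, 4 and 0 fell. The early factor Mef2c, the pacemaker channel Hcn4 and the ligand Fgf8 were among the genes that fell. The edgeR test used samples with at least 20 such cells, with genotype and run as terms. It called 686 of 9264 genes (7.41%), 421 higher (4.54%) and 265 lower (2.86%) at E9.5. Without Bar19, Bar20 or Bar25 it called 447, 410 or 454. The only E8.0 control in the test was Bar26, beside the E8.0 mutants Bar25, Bar27 and Bar28. Sex was not a term: those E8.0 mutants and Bar19 were male, and the other samples in the test were female. Fold changes between stages are from this test unless another minimum is named, while CPM ranges cover samples with at least 10 such cells. Myl2 itself was 426 to 1017 CPM at E8.0 and 1590 to 4726 CPM at E9.5, a description since the rule used it.

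Nppa rose from 5 to 191 CPM over the E8.0 samples to 228 to 1097 CPM over the E9.5 samples, without overlap (log2 fold change 3.39, SE 0.43, edgeR adjusted p = 0.000110). The median over the 15 ventricular and chamber genes was 0.85 beside 0.012 for all genes. The channel subunit Kcne1 (2.41), the calcium pump regulator Pln (2.1) and the Notch effector Hey2 (1.41) rose, and Irx1 and Mpped2 fell. Of 12 trabecular genes 2 rose and 3 fell, among the latter the hyaluronan synthase Has2, at 47.0 to 150 CPM at E8.0 and 0 to 33.4 CPM at E9.5 (-1.78, SE 0.33, edgeR adjusted p = 0.00276).

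Among the contractile genes, Tnni3, the cardiac troponin I that replaces the slow form, was 177 to 537 CPM at E8.0 and 731 to 1589 CPM at E9.5 (1.31, SE 0.21, edgeR adjusted p = 0.000956). The myosin heavy chain Myh7 was 917 to 1608 CPM at E8.0 and 1232 to 3288 CPM at E9.5 (0.94, SE 0.16, edgeR adjusted p = 0.00181). Myoz2, a Z-disc protein, had no UMI in any of the 5 E8.0 samples and 3.06 to 38.8 CPM in 9 of the 10 E9.5 samples. The stretch-response gene Ankrd1 fell (-1.03, edgeR adjusted p = 0.00506), though with at least 10 cells per sample it did not pass (-0.66, edgeR adjusted p = 0.0908).

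The fatty acid and cardiac energy genes had a median of 0.78. Cox6a2 was 38.4 to 133 CPM at E8.0 and 260 to 582 CPM at E9.5 (2.20, SE 0.25, edgeR adjusted p = 4.61e-05), without overlap. Fabp3, the heart fatty acid carrier, was 88.7 to 205 CPM at E8.0 and 318 to 595 CPM at E9.5 (1.48, SE 0.16, edgeR adjusted p = 3.28e-05), also without overlap. Ldhb, the lactate dehydrogenase subunit of oxidative muscle (1.37), and Cpt2, a fatty acid importer of mitochondria (1.55), rose as well. Of 12 genes of the mitochondrial genome 4 rose and none fell.

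Of 18 glycolysis genes 10 rose and none fell (median 0.40), led by the hexokinase Hk1 (1.61, edgeR adjusted p = 0.000249), at 12.7 to 61.5 CPM at E8.0 and 72.2 to 198 CPM at E9.5. Of 27 low-oxygen genes 11 rose and none fell (median 0.86). The samples of both genotypes entered this comparison, and the summed low-oxygen level of the E9.5 controls, 7266 to 8693 CPM, overlapped with the 6153 to 7746 CPM of E8.0. The summed glycolysis level was 14986 to 17169 CPM at E8.0, 15725 to 17395 CPM in E9.5 controls and 18981 to 24863 CPM in E9.5 mutants. For glycolysis too the E9.5 controls thus overlapped with E8.0, while the E9.5 mutants did not.

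Among cardiac transcription factors 2 of 27 rose and 5 fell. Mef2c, a factor of the early cardiomyocyte, was 589 to 1026 CPM at E8.0 and 282 to 414 CPM at E9.5 (-0.83, SE 0.13, edgeR adjusted p = 0.000843), and its partner Myocd fell as well (-0.81). Of 18 calcium handling and channel genes 6 rose and 2 fell: Cacna1h (2.85) and the gap junction protein Gja1 (1.53) rose, and the pacemaker channel Hcn4 fell (-1.11). Of 11 outflow tract and anterior heart field genes 2 rose and 3 fell, the ligands Bmp4 (1.53) and Fgf8 (-1.18) and the co-receptor Tdgf1 (-1.41) among them.

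Beyond the lists, the largest falls were of genes with differing functions, and no theme among them was tested. Lefty2, the Nodal antagonist of left-sided mesoderm, was 0 to 113 CPM at E8.0 and 0 to 6.00 CPM at E9.5 (-5.47, edgeR adjusted p = 0.000155). The FGF feedback inhibitor Spry4 (-3.40), the homeobox factor Barx1 (-3.33), the membrane protein Ifitm1 (-3.13) and the immediate early gene Fosb (-2.83) fell, as did the neuropeptide gene Gal (-3.04). The matrix protein Tnc (3.24), the hydrolase-like Adprhl1 (3.42), the reticulophagy receptor Retreg1 (3.63) and the potassium channel subunit Abcc9 (3.34) rose. Tnc was 0 to 4.39 CPM at E8.0 and 6.00 to 63.2 CPM at E9.5, without overlap. The CDK inhibitor Cdkn1c fell (-0.75, edgeR adjusted p = 0.000976) while 3 of 25 cell cycle genes rose, Ccna2, Ccnb2 and Plk1. With at least 10 cells per sample Ccnb2 (0.52, edgeR adjusted p = 0.0791) and Plk1 (0.65, edgeR adjusted p = 0.0708) did not pass. Blood markers moved here too, with 5 of 6 higher at E9.5, and without the 3 globin-rich cells 672 genes were called, 663 of them shared.

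**Figure D5:**
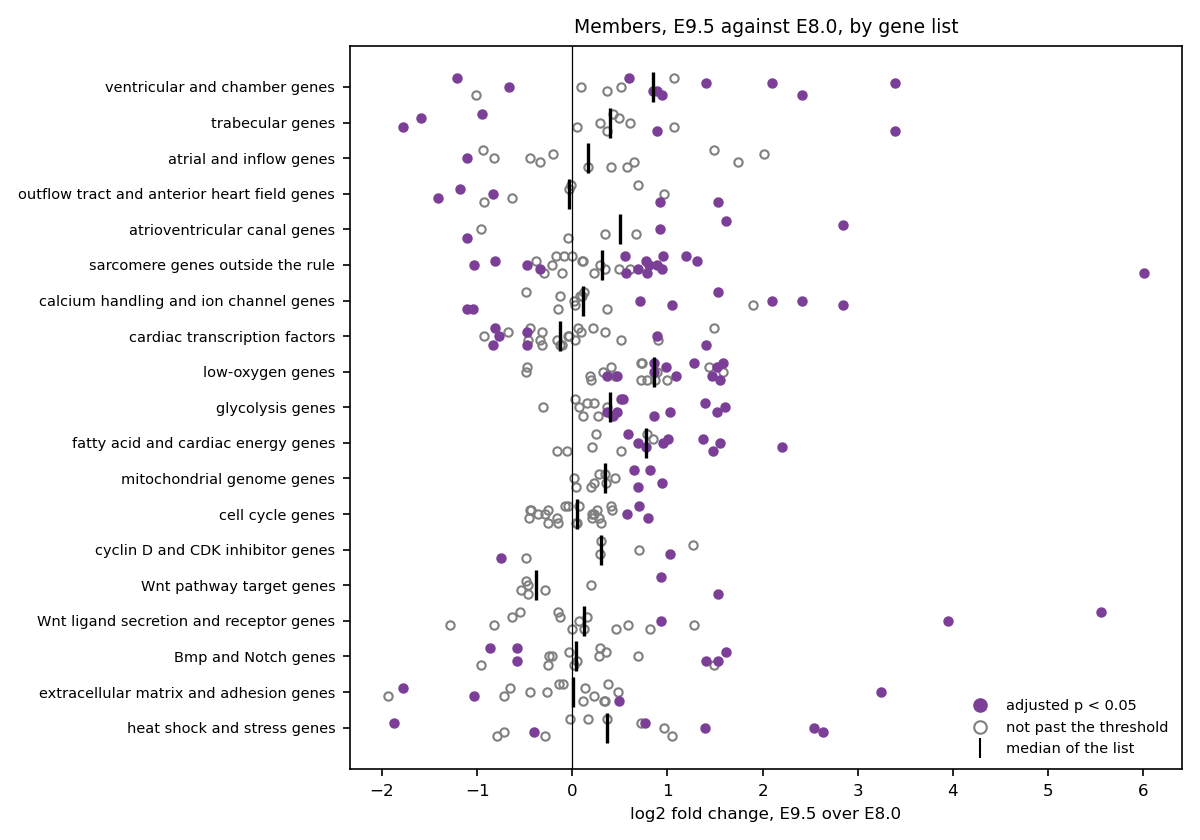
Log2 fold change, E9.5 over E8.0, of each tested gene of 19 gene lists in Myl2-positive cells (filled: edgeR adjusted p under 0.05; open: not past it; bar: median of the list). Most filled points of the ventricular and chamber, sarcomere and fatty acid and energy lists lie right of 0, and Myoz2, at 6.01, had no UMI at E8.0, so its position depends on the model's prior count.

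Cells of 1 sample also varied among themselves. In the samples with most Myl2-positive cells, Bar22 and Bar9 (51 cells used in each), Spearman correlations across cells are given as a description, since cells of a sample share its library and depth and were chosen by Myl2 and Myl7 among others. Myl2 and Nppa correlated at 0.63 and 0.47, Nppa and Nppb at 0.68 and 0.52, and Myl2 and Myl3 at 0.42 and 0.39. Myl2 and Myh7 did not vary together, at 0.03 and -0.09, and Nppa and the pan-cardiac light chain Myl7 ran opposite, at -0.32 and -0.34.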

How the data were processed

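Single-cell RNA-seq of tdTomato-sorted Mesp1-lineage cells was analysed from the combined matrix of raw UMI counts that the authors deposited, with the deposited per-cell table of run, barcode, stage and genotype. Reads were mapped with kallisto and bustools to GRCm38, per the submitters' processing notes and the labels. The matrix held 51923 genes and 14777 cells already assigned to samples, and 23 cell barcodes occurred in more than 1 run (46 cells, 1 of them Myl2-positive).

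Counts of the Myl2-positive cells were summed per barcode sample and tested with edgeR 4.0.16 in R 4.3.3 (TMM, filterByExpr, quasi-likelihood, two-sided, Benjamini-Hochberg over all genes tested, threshold 0.05); DESeq2 1.42.0 was an alternative. Runs were blocks. Shares were compared by exact permutation within stage and run in Python 3.11.15. Intervals and limits at a count of 0 (3 UMIs) cover counting error only. Scrublet (scanpy 1.11.5) called 79 doublets (0.535% of cells, 0.108% in run 2), 3 of them Myl2-positive; these were kept, and left out as an alternative. Sex was read as the share of cells with more Y-linked than Xist UMIs. On simulated counts, the share of genes found at a log2 change of 1 was 29.8% at E9.5 with at least 20 cells per sample (8347 genes), 66.3% there with at least 10 (7638 genes), 68.8% over the 3 stages (8770 genes) and 63.4% between stages (8761 genes).

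The genes named were Wls, the markers, at most 4 called genes of each list by size, the 6 largest called rises and falls among autosomal genes with a mean of at least 20 CPM in a group, and the 8 largest class differences each way. Uncalled list genes were named where a list is described, and Bnip3, P4ha2, Pgk1, Vegfa, Lef1, Isl1, Hey2 at E9.5, Irx1, Mpped2, Rpl34 and Xist were named after their values were seen. The cells, lists and tests were chosen with earlier results of these data known. Gene chromosomes came from GENCODE M21 and promoters from RefSeq. The E9.5 to E8.5 comparison was not made, because stage and run could not be separated with at least 20 cells per sample.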

Additional observations from a re-analysis of the deposited data

Results flagged for a closer look

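In groups of 5 E9.5 samples, single samples stood apart from the rest of their group by Dixon's criterion for several genes and 1 share. With 84 groups tested, chance flags about 1 in 20 groups. The mutant Bar19 held 22.6 CPM of Wls against 0 to 4.77 in the other mutants, and 108 CPM of Wfdc2 against 0 to 5.87, both mostly from 1 cell. The mutant Bar8 held 5153 CPM of Ttn against 6068 to 6321, and the mutant Bar20 held 514 CPM of Ccnd2 against 180 to 262.

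The control Bar7 held 199 CPM of Pfkp against 119 to 141, and its share of Myl2-positive cells was 10.4% against 1.63% to 3.78%. The control Bar4 held 12.2 CPM of Mt1 against 49 to 63.2, 168 CPM of Rps15a-ps8 against 0 to 3.97 and 174 CPM of Rps13-ps1 against 0 to 4.87. The control Bar9 held 9892 CPM of Hbb-y against 471 to 2297, 1551 CPM of Hba-a1 against 88.7 to 370, 6188 CPM of Hba-x against 388 to 1192 and 744 CPM of Hba-a2 against 67.5 to 199. The mutant Bar19 held 4688 CPM of Hba-x against 574 to 1422. Bar9 and Bar19 are the samples with globin-rich Myl2-positive cells.

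The genotype effect differed between Myl2-positive and Myl2-low cells by the edgeR interaction test for CT010467.1 (-1.41) with at least 20 cells of each class, where no E9.5 mutant and no E8.0 control entered and genotype and stage cannot be told apart except at E8.5, but not with at least 10 (-0.08, edgeR adjusted p = 0.992). With at least 10 it did so for Nppb (-4.95), Creb5 (-3.10), Tgfb2 (-1.08), Anxa2 (-1.03), Ccnd2 (-0.89) and Actg1 (-0.80), each on the log2 scale.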

How the results depend on the processing

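The count of called genes moved with the settings, and the cause was not tested. Over the 3 stages the 11 called genes became 10 with DESeq2 (3 of them shared), 168 with no filter on low counts, 82 with at least 10 cells per sample, 113 with Myl2 of at least 5 UMIs, 158 with Myl2 per 10000 UMIs, 143 without called doublets, 163 without the deepest cells, 1 with male share as covariate and 0 in run 1 alone (leave-one-out 0, without Bar1, Bar3, Bar22 or Bar23, to 128, without Bar26). The settings with 113 to 163 genes left out Bar26, and those with 113 and 158 also Bar25, which fell under 20 cells (without Bar25 alone 32). At E9.5 the 127 became 33 with DESeq2, 285 with no filter, 262 with at least 10 cells, 241 with Myl2 per 10000 UMIs, 84 without doublets, 224 without the deepest cells and 13 with male share (leave-one-out 24, without Bar19, to 280, without Bar20). Between stages the 686 became 399 with DESeq2, 1067 with at least 10 cells and 365 with Myl2 of at least 5 UMIs, a setting chosen after the data were seen (leave-one-out 410, without Bar20, to 725). The setting with 365 also left out Bar25 and Bar26, so no E8.0 control remained in it. The class difference gave 0 genes with DESeq2 (42 at an unadjusted p under 0.05), 16 with no filter and 6 with at least 10 cells (leave-one-out 1 to 5). The 3-stage share difference was 1.88 with Myl2 per 10000 UMIs and 1.51 without globin-rich cells in the total (leave-one-out 1.33 to 2.49), and leaving out samples gave 1.93 to 2.99 points at E8.0 and 0.106 to 1.94 at E9.5. The share among cells past the contractile threshold at E9.5 was -9.70 points in run 3 alone and reversed without Bar19 (-1.59), Bar20 (-0.973), Bar23 (-3.45) or Bar9 (-1.33), with a range of -3.45 to 6.12, and over the 3 stages without Bar29 (-0.687), with a range of -0.687 to 5.74. Of 2210 recomputed values of 101 named genes none reversed and 461 no longer passed. Only genes called in a main fit were followed, and the settings shared most samples, so reversals were unlikely from the start. A minimum of 50 cells, fits at 20 cells without run 1 and the class difference without Bar1 or Bar3 could not be fitted. Few samples and cells, 20 or more in 11 samples, limit what was detectable.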
